A study of Mus musculus with 15 samples.

Results

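Galectins are a family of lectins, proteins that bind sugar chains ending in galactose, and 8 of their genes were followed across mouse epithelia: Lgals1, Lgals2, Lgals3, Lgals4, Lgals7, Lgals8, Lgals9 and Lgals12. They were taken by gene name from the 50600 genes of the tables. The family was picked because Lgals3 had been seen to be high in skin and colon and nearly absent from cTEC, so that Lgals3 is described here without a test, and only the 7 other genes are tested. All samples were epithelial cells that had been sorted by flow cytometry, and the donors were male C57BL/6J mice, 8 weeks old, with no treatment named. The groups compared were medullary thymic epithelial cells (mTEC), cortical thymic epithelial cells (cTEC), and the epithelia of skin, lung and colon. Each group had 3 libraries, each from the pooled cells of 5 mice, and the series was made to look at how these epithelia come to carry different amounts of MHC class I. Whether pools with the same replicate number were prepared together is not given in the labels.

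A prototype galectin (from Lgals1, Lgals2 or Lgals7) has a single sugar-binding domain and forms dimers, and a tandem-repeat galectin (Lgals4, Lgals8, Lgals9, Lgals12) has a pair of such domains in the same chain. Galectin-3, from Lgals3, is the chimera type, whose long tail lets it gather into clusters once it has bound. Galectins leave the cell without a signal peptide and crosslink glycoproteins on cell surfaces, and inside the cell they bind sugars that are exposed when vesicles break. Galectin-7 is known from keratinocytes, galectin-4 from the gut, and galectin-1 and galectin-9 as proteins that can kill or restrain T cells, thymocytes included.

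Gene reads per library ranged from 12946533 to 18538657 for mTEC, cTEC and skin, and from 24223316 to 41978665 for lung and colon. These sets were also made with different library kits, KAPA RNA Stranded PolyA for the first 3 groups and KAPA RNA HyperPrep PolyA for lung and colon. In the 6 pairs of groups that span both kits, kit and tissue cannot be told apart. The markers of each tissue summed highest where the labels put them, except for those of mTEC. Aire, the medullary regulator of tissue antigens, had 242 to 613 CPM (read counts scaled to library size) in mTEC and 26.4 to 67.1 in cTEC, and Prss16, a cortical protease, had 112 to 155 in mTEC and 1313 to 4884 in cTEC. The mTEC list as a whole reached its highest total in skin, since it holds Krt5, a basal keratin with 6638 to 15590 CPM in skin against 3039 to 4268 in mTEC. Of the same list, Cldn3 and Cldn4 were highest in colon, at 522 to 709 and 1443 to 1828 CPM, against 29.6 to 43.5 and 125 to 283 in mTEC. Fezf2, Ccl21a and Cd80 were highest in mTEC, as Aire was, and Tnfrsf11a overlapped between mTEC and colon. Among the cTEC libraries, replicate 3 stood apart in cortical markers, whose 7 genes summed to 11780 CPM against 4790 and 4161 in replicates 1 and 2. The 8 mTEC markers summed to 1897 CPM in that library, against 3067 and 3673. Skin replicate 3 stood apart in fibroblast markers, whose 8 genes summed to 7641 CPM there against 4007 and 1272 in replicates 1 and 2. In sorted bulk samples, fewer cells of a type and less RNA per cell cannot be told apart.

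The promoters of the 4 galectins that dominated some epithelium are shown, because those genes separate the tissues. Of the 8 genes, 6 had an entry in the RefSeq promoter table (GRCm38.p6), each shown from 250 bases before to 30 bases after the RefSeq start, on the strand of the gene. They are Lgals3 at chr14:47373610-47373889 (plus strand), Lgals4 at chr7:28833544-28833823 (plus), Lgals7 at chr7:28864136-28864415 (plus) and Lgals9 at chr11:78984895-78985174 (minus). Capitals mark letters that match a searched motif on either strand.
Lgals3: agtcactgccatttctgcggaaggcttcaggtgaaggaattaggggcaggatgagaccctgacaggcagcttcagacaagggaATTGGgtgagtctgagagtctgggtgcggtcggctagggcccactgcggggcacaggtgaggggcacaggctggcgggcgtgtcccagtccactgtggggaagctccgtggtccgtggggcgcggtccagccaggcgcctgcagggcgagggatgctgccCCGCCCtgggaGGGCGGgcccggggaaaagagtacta
Lgals4: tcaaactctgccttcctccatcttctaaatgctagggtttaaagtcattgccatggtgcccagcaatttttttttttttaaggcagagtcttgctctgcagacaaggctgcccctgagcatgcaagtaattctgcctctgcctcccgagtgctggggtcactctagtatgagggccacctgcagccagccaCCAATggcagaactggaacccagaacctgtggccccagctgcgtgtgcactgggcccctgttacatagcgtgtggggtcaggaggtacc
Lgals7: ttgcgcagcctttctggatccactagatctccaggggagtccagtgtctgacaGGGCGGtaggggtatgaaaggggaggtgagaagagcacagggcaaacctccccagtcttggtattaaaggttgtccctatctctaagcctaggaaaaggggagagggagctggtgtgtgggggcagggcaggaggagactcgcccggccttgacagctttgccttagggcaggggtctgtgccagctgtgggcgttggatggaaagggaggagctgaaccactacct
Lgals9: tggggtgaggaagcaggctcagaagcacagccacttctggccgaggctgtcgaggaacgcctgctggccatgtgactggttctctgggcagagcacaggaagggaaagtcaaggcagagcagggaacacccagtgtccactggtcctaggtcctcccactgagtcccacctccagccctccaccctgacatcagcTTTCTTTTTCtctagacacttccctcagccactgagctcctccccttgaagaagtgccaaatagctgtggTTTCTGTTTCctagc

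Of 5 short motifs searched on both strands, with distances counted to the leftmost letter, the interferon-stimulated response element (ISRE, searched as GAAA, any 2 bases, GAAA) was present in 3.35% of the 27025 promoters of the table, taking the first per gene. Lgals9 held 2 matches to it, 55 bases before and 16 bases after the start. The GC box (GGGCGG, 34.9% of promoters) matched at 2 places in Lgals3, 7 bases before and 5 bases after the start, and in Lgals7 at 197 bases before it. The CCAAT box (CCAAT, 36.6% of promoters) matched in Lgals3 at 167 bases and in Lgals4 at 59 bases before the start. The TATA box (TATAAA, 13.7% of promoters) and the AP-1 site (TGANTCA, 7.57%) had no match in these 4 windows, and no searched motif overlapped another. Such matches describe letters in a window and are not evidence of binding. The RefSeq starts of Lgals3, Lgals7 and Lgals9 lie inside the GENCODE spans of these genes, and that of Lgals4 lies just before its span.

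Compared per transcript length, in TPM, the leading galectin was Lgals9 in both thymic groups and a different gene in each of skin, lung and colon. In mTEC, Lgals9 made up 57.1% ± 5.38 of the summed TPM of the 8 genes, with Lgals1 at 20.8% ± 4.15 and Lgals8 at 10.7% ± 0.961 (SD, n = 3 here and below). In cTEC, Lgals9 made up 71.2% ± 1.99, Lgals8 11.1% ± 0.958 and Lgals1 7.46% ± 0.498. In skin, Lgals7 held 66.7% ± 1.56 and Lgals3 30.9% ± 2.99. In lung, Lgals3 alone held 81.4% ± 1.19 and Lgals1 9.58% ± 1.29. In colon, Lgals4 held 60.3% ± 2.29 and Lgals3 37.4% ± 2.45. The same gene led in all 3 libraries of each group. These shares include Lgals3, which was used to pick the family, and were not tested.

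**Figure D1:**
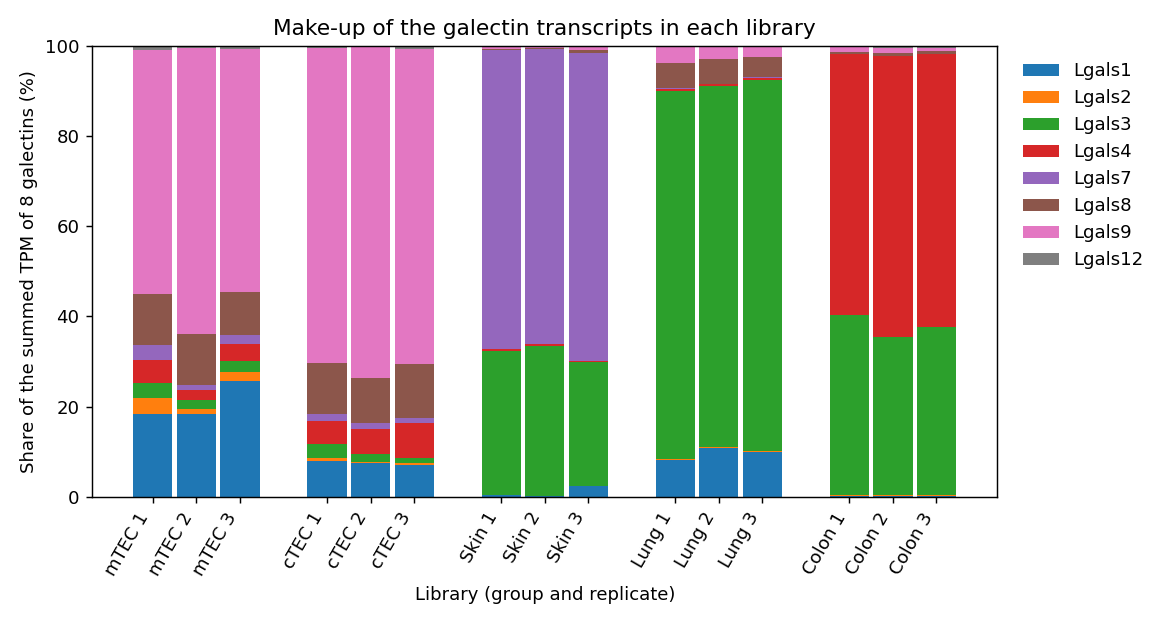
Share of each of the 8 galectins in their summed TPM (vertical axis, percent), with 1 bar per library and the groups from mTEC to colon along the horizontal axis. Lgals9 leads in the 6 thymic libraries, Lgals7 in skin, Lgals3 in lung and Lgals4 in colon, with mean shares of 57.1% in mTEC, 71.2% in cTEC, 66.7% in skin, 81.4% in lung and 60.3% in colon.

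The summed TPM of the 8 genes also differed by tissue. The 3 mTEC libraries had 819, 878 and 822 TPM in all, and the 3 cTEC libraries had 759.5, 768 and 726. Skin had 6284, 8526 and 5939, lung 836, 970.4 and 1097, and colon 5222, 3887 and 4511. Skin and colon libraries thus lay above every library of the other 3 groups, and skin lay above colon. These totals carry Lgals3, which was used to pick the family, and were not tested.

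**Figure D2:**
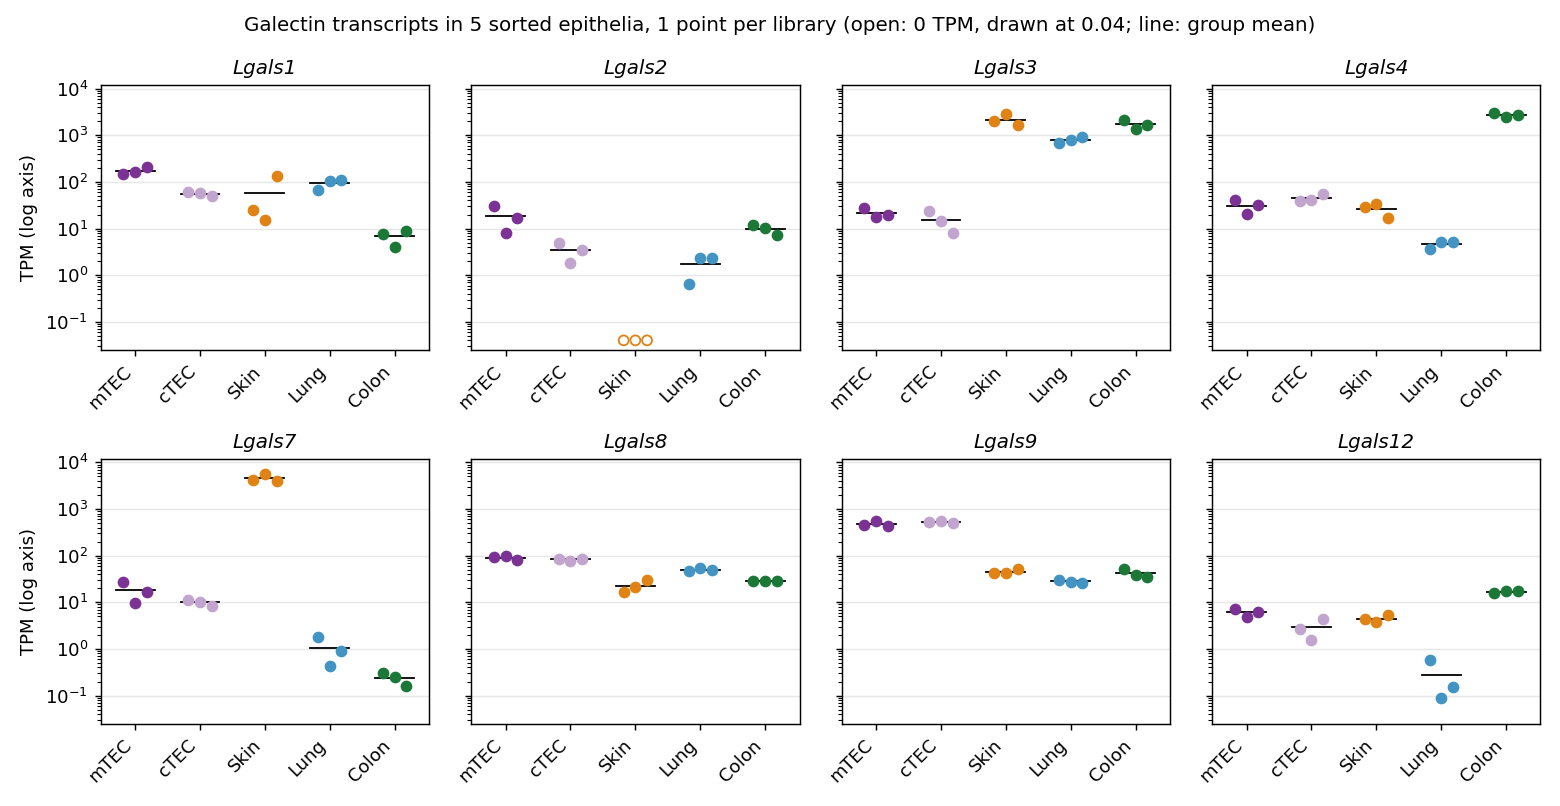
TPM of each galectin (vertical log axis), with 1 point per library, a line at the group mean and open points for libraries at 0 TPM. Lgals7 reaches 4061 to 5573 TPM in skin and at most 0.31 in colon, Lgals4 reaches 2425 to 3020 in colon and at most 5.18 in lung, and Lgals9 lies at 442 to 565 in the thymic libraries against 26.0 to 52.3 elsewhere.

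Lgals3 (chromosome 14, 47367751 to 47386160 on the plus strand, GRCm38), which encodes the clustering galectin of barrier epithelia and macrophages, had 14.4, 9.94 and 10.8 CPM in the mTEC libraries and 13.2, 9.64 and 5.04 CPM in cTEC. Skin had 1809, 2426 and 1052 CPM, lung had 496, 519.5 and 659, and colon had 1784, 1099 and 1430. The thymic libraries were low and overlapped each other, the lung libraries lay between, and skin and colon overlapped at the top. The fitted level was lower in mTEC than in skin, at -7.23 ± 0.44 on the log2 scale (standard error here and for every fitted difference below). It was lower in cTEC than in skin, at -7.56 ± 0.44, and lower in cTEC than in colon, at -7.27 ± 0.44. These differences chose the family and are given without a test.

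Macrophage transcripts were read beside Lgals3, since macrophages make galectin-3. The 13 myeloid markers summed to 143 to 244 CPM in mTEC, 77.7 to 91.8 in cTEC, 54.1 to 124 in skin, 1783 to 3322 in lung and 50.8 to 55.1 in colon. In lung most of the total came from Lyz2, a lysozyme gene also active in alveolar type II cells, at 1187 to 2805 CPM and Csf1r, a growth factor receptor, at 477 to 591. In the same libraries Cd14 had 11.6 to 20.9 CPM, Mpeg1 8.73 to 17.5 and Cd68 7.57 to 8.27, and the other 8 markers, Tyrobp, Fcer1g, Adgre1, Fcgr3, Itgam and the C1q genes C1qa, C1qb and C1qc, stayed at or below 3.19. No marker was at 0 in any lung library. The part of myeloid cells in the Lgals3 levels was not tested.

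**Figure D3:**
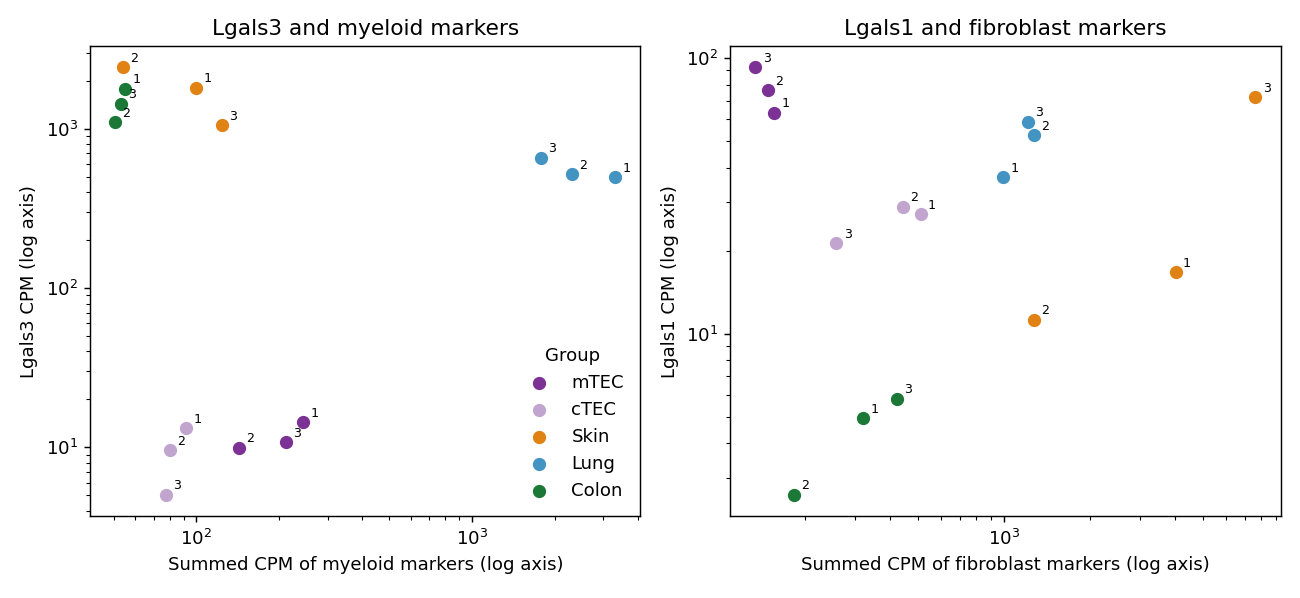
Lgals3 CPM against the summed CPM of 13 myeloid markers (left), and Lgals1 CPM against the summed CPM of 8 fibroblast markers (right), with 1 point per library labelled by replicate number and both axes logarithmic. The lung libraries lie at 496 to 659 CPM of Lgals3 and at 1783 to 3322 CPM of myeloid markers, and skin replicate 3 stands high in both Lgals1, at 72.0 CPM, and fibroblast markers, at 7641.

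Lgals7 and Lgals4, the galectins of stratified and intestinal epithelium, were each high in a single tissue. Lgals7 (chromosome 7, 28863853 to 28866284, plus strand) had 9.55, 4.19 and 6.12 CPM in mTEC and 4.09, 4.57 and 3.02 in cTEC. It had 2768, 3411 and 1926 CPM in skin, 0.923, 0.260 and 0.309 in lung, and 0.134, 0.10 and 0.0446 in colon, where it rested on 7 reads in all. Skin thus stood far above every other library, both thymic groups overlapped, and lung and colon lay at the floor. Lgals7 was lower in mTEC than in skin, at -8.67 ± 0.46 on the log2 scale (adjusted p = 5.06e-09) and lower in cTEC than in skin, at -9.43 ± 0.48 (adjusted p = 2.89e-09), both within 1 kit. All adjusted p-values of single genes come from the edgeR quasi-likelihood test with Benjamini-Hochberg adjustment over 19107 genes. Lgals7 was also higher in mTEC than in lung by 3.73 ± 0.43 (adjusted p = 3.68e-06) and than in colon by 6.06 ± 0.57 (adjusted p = 4.23e-07). Between lung and colon the fit put it higher in lung by 2.33 ± 0.72 (adjusted p = 0.0118). Lung held 49 reads of the gene and colon 7, and it passed the filter through the other groups. Nothing is therefore read from this call. It was lost without lung replicate 1, the lung library with the most reads of the gene (log2 difference 1.55, adjusted p = 0.0757). It was also lost with unstranded counts (log2 difference 1.51, adjusted p = 0.0645).

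Lgals4 (chromosome 7, 28833854 to 28841708, plus strand) had 25.03, 15.4 and 18.4 CPM in mTEC, 24.2, 32.7 and 35.9 in cTEC, and 29.2, 31.4 and 11.3 in skin. Lung had 3.32, 3.93 and 4.24 CPM, and colon had 3269, 2433 and 2893. Colon was far above the rest, lung was lowest, and the thymic and skin libraries overlapped between them. The level was lower in mTEC than in colon, at -7.19 ± 0.39 on the log2 scale (adjusted p = 2.05e-09), lower in skin than in colon, at -6.91 ± 0.39 (adjusted p = 2.54e-09) and lower in lung than in colon, at -9.54 ± 0.44 (adjusted p = 3.13e-10). It was higher in cTEC than in lung by 3.01 ± 0.33 (adjusted p = 2.66e-06). The differences of mTEC from cTEC (-0.66 ± 0.31, adjusted p = 0.134), mTEC from skin (-0.28 ± 0.31, adjusted p = 0.453) and cTEC from skin (0.37 ± 0.31, adjusted p = 0.315) did not pass. Without skin replicate 3 the first 2 passed, at -0.65 (adjusted p = 0.023) and -0.60 (adjusted p = 0.0321). Lgals6, a near-identical copy of Lgals4 known from some mouse strains, is not among the genes analysed here.

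Lgals9 and Lgals8, which carry a pair of sugar-binding domains, were highest in both thymic groups. Lgals9 (chromosome 11, 78962974 to 78984946, minus strand), whose protein binds the T cell checkpoint receptor TIM-3, had 375, 522 and 387 CPM in mTEC and 478, 581 and 415 in cTEC. It had 61.7, 58.2 and 56.4 CPM in skin, 33.3, 27.5 and 29.4 in lung, and 67.8, 47.7 and 45.04 in colon. The thymic groups overlapped each other and no other group, skin and colon overlapped, and lung was lowest. Within the shared kit, Lgals9 was higher than in skin by 2.87 ± 0.20 on the log2 scale in mTEC (adjusted p = 4.34e-08) and by 3.07 ± 0.20 in cTEC (adjusted p = 2.39e-08). It was higher than in lung by 3.83 ± 0.21 in mTEC (adjusted p = 1.71e-09) and 4.03 ± 0.21 in cTEC (adjusted p = 1.51e-09), and higher than in colon by 3.0 ± 0.20 in mTEC (adjusted p = 1.21e-08) and 3.20 ± 0.20 in cTEC (adjusted p = 6.45e-09). Those 6 calls stayed past the threshold in every alternative tried, leave-one-outs included. The difference of mTEC from cTEC was -0.20 ± 0.18 (adjusted p = 0.462).

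Lgals8 (chromosome 13, 12439415 to 12464944, minus strand), a sensor of broken vesicles, had the narrowest range of group levels. It had 107, 122 and 100.1 CPM in mTEC, 112, 114 and 111 in cTEC, 41.9, 46.7 and 42.7 in skin, 80.2, 86.4 and 88.6 in lung, and 58.4, 51.7 and 53.9 in colon. The thymic libraries were highest and overlapped, followed by lung, colon and skin, with no overlap between these 3. It was higher than in skin by 1.33 ± 0.11 on the log2 scale in mTEC (adjusted p = 2.90e-07) and by 1.36 ± 0.11 in cTEC (adjusted p = 2.17e-07). The difference of mTEC from lung was 0.37 ± 0.11 (adjusted p = 0.00922) and was lost without lung replicate 1 (adjusted p = 0.0592). The difference of skin from colon was -0.32 ± 0.11 (adjusted p = 0.0217). It did not pass with DESeq2 size factors (adjusted p = 0.0618), with upper quartile scaling (0.203) or with no filter (0.0596). Nor did it pass without skin replicate 1 (0.0576) or without colon replicate 1 (0.0775).

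Lgals1 (chromosome 15, 78926725 to 78930465, plus strand), the prototype galectin of stroma and many other cells, had 63.2, 76.3 and 92.4 CPM in mTEC and 27.1, 28.8 and 21.3 in cTEC. It had 16.7, 11.2 and 72.0 CPM in skin, 36.9, 52.4 and 58.6 in lung, and 4.92, 2.60 and 5.80 in colon. Every mTEC library lay above every cTEC library, colon was lowest, and skin replicate 3 lay far above the other skin libraries. The level was higher in mTEC than in cTEC by 1.59 ± 0.51 on the log2 scale (adjusted p = 0.0347). The call was lost when any 1 of the 6 thymic libraries was left out (adjusted p = 0.0632 to 0.112). With the replicate number as a block in the thymic libraries alone, an alternative chosen after seeing the data, the difference was 1.58 (adjusted p = 0.0579), and within the libraries of that kit it was 1.56 (adjusted p = 0.0814). Without skin replicate 3 the adjusted p was 0.000484. Lgals1 was lower in colon than in every other group, with mTEC higher by 4.13 ± 0.57 (adjusted p = 1.997e-05), cTEC by 2.54 ± 0.54 (8.56e-04), skin by 2.93 ± 0.55 (3.47e-04) and lung by 3.48 ± 0.56 (8.17e-05).

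The position of skin in the order of Lgals1 rested on replicate 3. With all libraries, mTEC was above skin by 1.21 ± 0.50 on the log2 scale (adjusted p = 0.0539), and cTEC differed from skin by -0.38 ± 0.50 (adjusted p = 0.536). Without skin replicate 3, mTEC was above skin by 2.5 (adjusted p = 1.36e-05) and cTEC was above skin by 0.91 (adjusted p = 0.0196). The difference of skin from lung was -0.56 ± 0.50 (adjusted p = 0.355), against -1.84 (adjusted p = 1.32e-04) without that library. The differences from lung of mTEC, at 0.65 ± 0.50 (adjusted p = 0.266), and of cTEC, at -0.94 ± 0.50 (adjusted p = 0.121), also passed without it (adjusted p = 0.0297 and 0.00577). The fibroblast markers summed to 134 to 156 CPM in mTEC and 258.5 to 511 in cTEC. Most of the cTEC sum was Dcn, at 206 to 432 CPM, against 57.3 to 97.9 in mTEC. Col3a1, at 34.2 to 89.0 CPM in cTEC and 23.8 to 27.4 in mTEC, Dpt and Lum were also higher in every cTEC library. Pdgfrb had 6.59 to 20.96 CPM in mTEC and 2.30 to 3.95 in cTEC, and Pdgfra was likewise higher in every mTEC library. Col1a1, at 10.1 to 32.1 CPM in mTEC and 7.09 to 10.3 in cTEC, and Col1a2 overlapped between these groups. Of the 8 markers, 1 was called higher and 2 lower in mTEC than in cTEC, where 15.2% of all genes were higher and 9.45% lower. The median log2 difference of the list was -1.10, against 0.07 over all genes. These markers summed to 996 to 1273 CPM in lung and 184 to 421 in colon, and none of the 8 was at 0 in any library. Their part in the Lgals1 levels was not tested. Lgals1 has processed pseudogenes, so some of its reads may have been lost in counting reads with a single place.

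Lgals2 (chromosome 15, 78850860 to 78855529, minus strand), a galectin of the digestive tract, was low throughout. It had 8.70, 2.62 and 5.34 CPM in mTEC and 1.62, 0.613 and 1.008 in cTEC. It had no sense read in any skin library, 0.246, 0.897 and 1.05 CPM in lung, and 5.86, 4.37 and 3.35 in colon. With skin set at a floor of 3 reads over its libraries, Lgals2 was at least 72.2-fold higher in mTEC than in skin, at least 14.2-fold higher in cTEC, at least 9.41-fold higher in lung and at least 57.7-fold higher in colon. Every mTEC library lay above every cTEC library, by 2.35 ± 0.61 on the log2 scale in the fit (adjusted p = 0.0154). With the block on the thymic libraries the adjusted p was 0.0131, and the call was lost without mTEC replicate 1 (0.0785), cTEC replicate 2 (0.0651) or cTEC replicate 3 (0.053). The mTEC and colon libraries overlapped, with a difference of 0.30 ± 0.57 (adjusted p = 0.661). Lgals2 overlaps Cdc42ep1 on the opposite strand, and its skin libraries held 90, 49 and 34 reads of that strand, so the levels hold only for the sense counts.

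Lgals12 (chromosome 19, 7596660 to 7607193, minus strand), known from fat cells, had 11.1, 7.98 and 10.02 CPM in mTEC, 4.28, 2.95 and 6.44 in cTEC and 10.5, 8.93 and 9.83 in skin. Lung had 1.05, 0.174 and 0.248 CPM, and colon had 36.2, 37.4 and 41.4. Colon was highest, lung lowest, and the mTEC and skin libraries overlapped, above those of cTEC. The level was lower in mTEC than in colon, at -1.98 ± 0.42 on the log2 scale (adjusted p = 7.77e-04), lower in skin than in colon, at -1.97 ± 0.42 (adjusted p = 9.51e-04), and lower in lung than in colon, at -6.28 ± 0.52 (adjusted p = 1.14e-07). The difference of cTEC from skin was -1.10 ± 0.42 (adjusted p = 0.0382) and was lost in 9 of the 15 leave-one-out fits. That of mTEC from cTEC was 1.09 ± 0.42 (adjusted p = 0.072), and it passed with DESeq2 (adjusted p = 0.0285). It also passed with no filter (0.0416) and without skin replicate 3 (0.0447), lung replicate 1 (0.0105) or lung replicate 2 (0.0459). The 6 adipocyte markers summed to 5.25 to 11.8 CPM in mTEC, 0.669 to 2.35 in cTEC, 1.40 to 7.25 in skin, 0.607 to 1.18 in lung and 5.00 to 8.28 in colon. The colon sums were almost wholly Cidec, a lipid droplet gene with 4.93 to 8.10 CPM there, while Adipoq and Lep had no read in colon and Plin1, Retn and Cfd stayed at or below 0.0333, 0.179 and 0.0446 CPM. In mTEC, Cidec had 2.29 to 5.13 CPM and Adipoq 1.84 to 3.62. Their part in the levels of Lgals12 was not tested.

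Among 2 further relatives in the tables, Grifin, a lens protein of the galectin fold, had most of its reads in mTEC. It had 85 reads over the mTEC libraries (1.31, 0.837 and 1.91 CPM), 2 over cTEC and none in skin, lung or colon. With the floor of 3 reads, mTEC was at least 17.9-fold higher than skin, 46.3-fold higher than lung and 34.8-fold higher than colon. Lgalsl, a galectin-like gene, had means of 28.2 CPM in mTEC, 36.4 in cTEC, 149 in skin, 39.2 in lung and 81.1 in colon.

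Counted over the pairs, the 7 tested galectins passed the test in 2 to 7 cases per pair, read beside the share of all tested genes that passed. Between mTEC and cTEC 2 of 7 passed, both higher in mTEC, against 24.7% of all genes (15.2% higher and 9.45% lower in mTEC). With the thymic replicate block only Lgals2 passed, so the count was 1, and it ranged from 0 to 4 when each library was left out in turn. Between mTEC and skin 4 of 7 passed (57.0% of all genes, 34.6% higher and 22.4% lower in mTEC), with Lgals2, Lgals8 and Lgals9 higher and Lgals7 lower in mTEC. Between cTEC and skin 5 of 7 passed (56.4%, 32.5% higher and 23.9% lower in cTEC), the same 4 genes in the same directions and Lgals12, lower in cTEC. Between mTEC and lung 6 of 7 passed (63.6%, 34.9% higher and 28.6% lower in mTEC), all higher in mTEC. Between cTEC and lung 5 of 7 passed (59.5%, 30.9% higher and 28.6% lower in cTEC), all higher in cTEC. Between mTEC and colon 6 of 7 passed (66.0%, 36.9% higher and 29.1% lower in mTEC), and between cTEC and colon 7 of 7 (65.1%, 34.6% higher and 30.5% lower in cTEC). Lgals4 and Lgals12 were lower in both thymic groups than in colon, and Lgals2 was lower in cTEC. Between skin and lung 6 of 7 passed (60.4%, 26.7% higher and 33.7% lower in skin), with Lgals4, Lgals7, Lgals9 and Lgals12 higher in skin. Between skin and colon 6 of 7 passed (58.2%, 27.4% higher and 30.8% lower in skin), with Lgals1 and Lgals7 higher in skin. Between lung and colon 7 of 7 passed (58.6%, 30.4% higher and 28.3% lower in lung), with Lgals1, Lgals7 and Lgals8 higher in lung. That count includes Lgals7, which lay at the floor in both groups and passed the filter through the others. With 7 genes, shares of this kind are too coarse to set the family apart from all genes. The counts of cTEC with skin and colon come from contrasts that led to the choice of the family, and nothing is read from them.

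**Figure D4:**
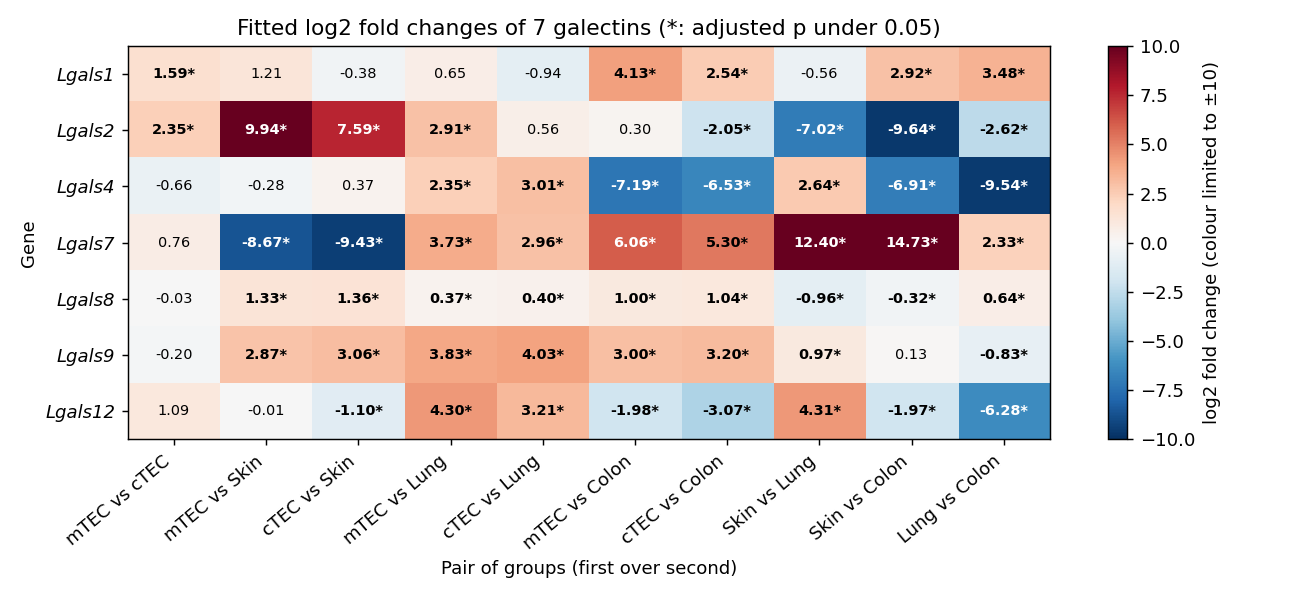
Fitted log2 fold change of the 7 tested galectins (rows) in the 10 pairs of groups (columns, first group over second), by colour and number, with a star for an adjusted p under 0.05. Lgals9 is higher in both thymic groups than in skin, lung and colon, by 2.87 to 4.03, while Lgals7 and Lgals4 change sign with the tissue. Lgals2 has no sense read in skin, so the size of its fitted differences from skin is set by the fit and is not measured.

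Lgals4 and Lgals7 are neighbours on chromosome 7, 22144 bases apart with no protein-coding gene between them, yet they were high in different tissues. In skin Lgals4 averaged 24.0 ± 10.99 CPM and Lgals7 2702 ± 745, and in colon Lgals4 averaged 2865 ± 418 and Lgals7 0.0930 ± 0.0453. The genes on either side, chosen by position, showed no such contrast. Ech1, a fatty acid oxidation enzyme just before Lgals4, averaged 70.2 ± 8.55 CPM in mTEC, 112 ± 8.69 in cTEC, 109.7 ± 33.1 in skin, 80.5 ± 3.06 in lung and 147 ± 22.6 in colon. Actn4, an actin crosslinker past Lgals7, averaged 365 ± 31.9 CPM in mTEC, 519.5 ± 43.9 in cTEC, 1164 ± 66.3 in skin, 609.9 ± 10.6 in lung and 821 ± 100.3 in colon. Capn12, between Lgals7 and Actn4, stayed at or below a mean of 0.843 CPM in all 5 groups. On chromosome 15, Lgals2 and Lgals1 lie 71195 bases apart, with Gga1 and Sh3bp1 between them.

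Lgals3bp, which encodes a secreted glycoprotein that binds galectin-3, was highest in the thymic groups. It had 369, 423 and 480.2 CPM in mTEC, 448, 495 and 389 in cTEC, 43.0, 13.5 and 51.7 in skin, 89.0, 95.9 and 89.8 in lung, and 147, 110.3 and 121 in colon. The thymic groups overlapped each other and stood above all other libraries, and skin was lowest. Lgals3bp was higher than in skin by 3.55 ± 0.35 on the log2 scale in mTEC (adjusted p = 1.39e-06) and by 3.62 ± 0.35 in cTEC (adjusted p = 1.14e-06). Of the 15 genes listed as galectin partners, 6 were higher and 7 lower in mTEC than in skin, where 34.6% of all genes were higher and 22.4% lower. The median log2 difference of the list was -0.31, against 0.22 over all genes. Cd44, a hyaluronan receptor, was lower in mTEC than in skin, at -1.68 ± 0.25 (adjusted p = 5.29e-05). Integrin subunits that galectins can crosslink were lower in mTEC than in lung, Itgb1 at -2.57 ± 0.15 (adjusted p = 3.72e-09) and Itga3 at -2.90 ± 0.20 (adjusted p = 2.16e-08). In that pair 4 of the 15 were higher and 8 lower in mTEC, where 34.9% of all genes were higher and 28.6% lower, and the median of the list was -0.45 against 0.14 over all genes. Havcr2, which encodes TIM-3, averaged at most 0.776 CPM in any group and had no read in skin.

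In the response to broken vesicles, galectin-3 and galectin-8 mark the membrane for autophagy. Trim16, a galectin-3-binding ubiquitin ligase of this response, averaged 4.33 ± 1.42 CPM in mTEC, 12.4 ± 2.55 in cTEC, 208 ± 71.3 in skin, 375 ± 30.02 in lung and 290.4 ± 19.9 in colon. It was lower in mTEC than in cTEC, at -1.53 ± 0.28 on the log2 scale (adjusted p = 0.00175) and lower than in skin, at -5.59 ± 0.31 in mTEC (adjusted p = 7.16e-09) and -4.07 ± 0.29 in cTEC (adjusted p = 5.18e-08). Of the 8 listed genes of the response, 1 was higher and 2 were lower in mTEC than in skin, 2 were higher and 2 lower in cTEC than in skin, and 0 were higher and 7 lower in mTEC than in lung. Of all genes, 57.0%, 56.4% and 63.6% were called in these pairs. The median log2 differences in these pairs were -0.10, 0.09 and -0.99, against 0.22, 0.19 and 0.14 over all genes.

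The genes that shape the sugars galectins bind were read as 3 lists, for branching, galactose and sialic acid. Mgat5 and Mgat4a add branches to N-glycans that are then extended into galectin ligands. Mgat5 averaged 38.4 ± 4.22 CPM in mTEC, 21.3 ± 1.17 in cTEC, 38.9 ± 12.7 in skin, 39.0 ± 7.50 in lung and 221 ± 27.2 in colon. It was lower in mTEC than in colon, at -2.52 ± 0.21 on the log2 scale (adjusted p = 1.17e-07), and Mgat4a was lower, at -3.49 ± 0.25 (adjusted p = 3.17e-08). Mgat3, which adds a bisecting sugar that limits branching, averaged 126 ± 27.5 CPM in mTEC, 380.3 ± 74.9 in cTEC, 0.648 ± 0.482 in skin, 19.9 ± 13.7 in lung and 77.0 ± 18.01 in colon. It was lower in mTEC than in cTEC, at -1.59 ± 0.41 (adjusted p = 0.0122) and higher in cTEC than in skin by 9.18 ± 0.63 (adjusted p = 3.76e-08). Of the 11 branching genes, 3 were higher and 7 lower in lung than in colon, within 1 kit, where 30.4% of all genes were higher and 28.3% lower. The median log2 difference was -1.95, against 0.004 over all genes. In mTEC against colon, 8 of the 11 were called, 2 higher and 6 lower in mTEC, near the 66.0% of all genes called in that pair.

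In the galactose and lactosamine list, 4 of 13 genes were higher and 7 lower in lung than in colon, where 30.4% of all genes were higher and 28.3% lower. The median log2 difference was -1.09, against 0.004 over all genes. B3gnt2, a gene of this list, averaged 0.156 to 0.90 CPM per group in the sense counts but 14.8 to 35.7 TPM. Its sense counts thus cannot be taken as its level, and the calls and the median of the list include it. In mTEC against colon, 10 of the 13 were called, 3 higher and 7 lower in mTEC, against 66.0% of all genes. Gcnt3, which builds branched mucin-type O-glycans, averaged 149 ± 13.0 CPM in colon and at most 0.901 in any other group. Gcnt2, which branches lactosamine chains, averaged 490.0 ± 52.1 CPM in lung and 5.48 ± 1.86 in colon, a log2 difference of 6.49 ± 0.54 (adjusted p = 1.22e-07). B4galt1, a main galactose transferase, was lower than in skin, at -1.74 ± 0.18 in mTEC (adjusted p = 1.97e-06) and -1.97 ± 0.18 in cTEC (adjusted p = 6.00e-07).

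Sialic acid can cap galactose, and its linkage decides which galectins still bind. Of the 9 listed genes, 2 were higher and 7 lower in lung than in colon, and the same counts held for cTEC and for skin against colon, while in mTEC against colon 2 were higher and 6 lower. Of all genes, 58.6% were called in lung against colon, 65.1% in cTEC, 58.2% in skin and 66.0% in mTEC against colon. The median log2 difference in lung against colon was -3.54, against 0.004 over all genes. The genes lower in lung than in colon included Nans, which makes sialic acid, at -4.82 ± 0.15 (adjusted p = 2.65e-11), and St6gal1, whose alpha2-6 cap blocks galectin-1 binding, at -4.35 ± 0.47 (adjusted p = 1.56e-06). St6gal1 averaged 12.9 ± 2.52 CPM in mTEC, 9.11 ± 2.21 in cTEC, 8.40 ± 6.35 in skin, 10.2 ± 2.38 in lung and 207 ± 66.1 in colon. The exceptions were St3gal2 and St3gal1, which cap O-glycans, higher in lung than in colon by 4.54 ± 0.34 (adjusted p = 3.35e-08) and 2.0 ± 0.45 (adjusted p = 0.00149).

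**Figure D5:**
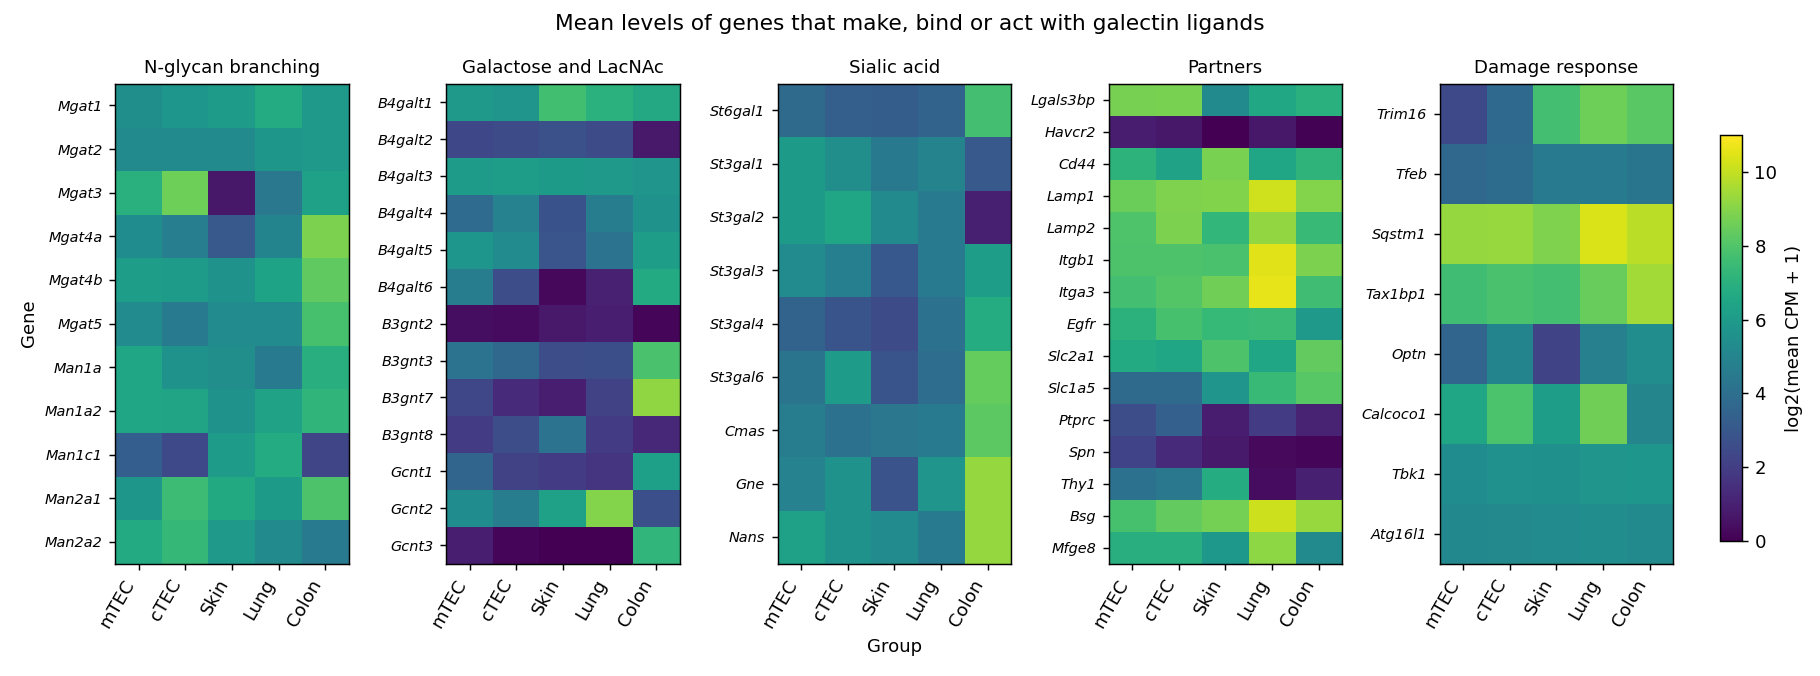
Mean level of the 56 listed genes of sugar synthesis, galectin binding and the damage response, as log2 of mean CPM plus 1 by colour, with genes down the page and the 5 groups from mTEC to colon across. The colon column is bright for St6gal1, Nans, Gcnt3 and Mgat5, with means of 207, 606, 149 and 221 CPM, and dark for St3gal2, at 0.967. Mgat3 is bright in cTEC, at 380.3 CPM, and dark in skin, at 0.648. B3gnt2 is dark in every group, with means of 0.156 to 0.90 CPM, but had means of 14.8 to 35.7 TPM.

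The genes whose levels followed each galectin most closely over the 15 libraries were found among 12006 protein-coding genes with a mean of at least 10 CPM in some group, by Pearson's r of log2 CPM, as a description. The 15 points fall into 5 tissues and 2 kits, so these values mostly reflect how tissues differ. Lgals7 was closest to Krt1 (r = 0.997), Krt10 (0.993) and Sbsn (0.991), genes of the upper epidermis. Lgals3 was closest to Coro1c (0.991), Cdc42ep1 (0.986) and Cd55 (0.985). Lgals4 was closest to Fbp2 (0.988), Fahd1 (0.980) and Aldh1b1 (0.980), of which Aldh1b1 averaged 332 CPM in colon and 0.263 in lung. Lgals9 was closest to Ly6e and H2-T23 (0.982 each), an interferon-inducible membrane protein and a non-classical MHC class I chain, and to Afap1 (0.977). Ly6e averaged 1996 CPM in mTEC, 3417 in cTEC, 324 in skin, 191 in lung and 383 in colon. Lgals8 was closest to Cyp7b1 (0.981), Sp110 (0.981) and Tmem176b (0.976). Lgals2 was closest to Scg2 (0.969), Syn2 (0.968) and Insrr (0.960), each high in mTEC and colon, with Scg2 at 12.3 CPM in mTEC and 14.9 in colon. Lgals1 was closest to C1s1 (0.952), Lama4 (0.946) and Zeb1 (0.941). Lgals12 was closest to Lrig1 (0.975), Plekhg3 (0.965) and Hjurp (0.959).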

How the data were processed

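Per the labels, RNA was extracted with TriZol and an RNeasy kit. The submitters' processing notes name bcl2fastq 2.20, STAR 2.5.1b, RSEM 1.2.28 and the build GRCm38. Which annotation the authors used is not given in the sources used. For each library the deposited files hold read counts per gene (unstranded and per strand) and the authors' RSEM expected counts, TPM and effective length in bases. The sense-strand counts were used, which summed to 8.43 to 19.3 times the reads of the opposite strand. This ratio was lowest in skin replicate 1, at 8.43, and next lowest in skin replicate 2, at 12.97. Reads not assigned to a gene, 24.2% to 46.9% of all reads in that column, were left out, with the highest share in skin replicate 1. Symbols and coordinates came from GENCODE M21 (GRCm38), which matched 50376 of 50600 identifiers without version, 45737 of them also in version.

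Counts were scaled with TMM in edgeR 4.0.16 (R 4.3.3) and filtered with filterByExpr by group, which kept 19107 genes and all 8 galectins. The filter keeps a gene that is high in 1 group only. A single fit with a term for each of 5 groups (10 residual degrees of freedom, common biological coefficient of variation 28.1%) gave 10 pairwise quasi-likelihood F-tests, adjusted by Benjamini-Hochberg over all genes tested, called at 0.05. The standard error is the log2 fold change over the square root of F, and a prior count of 2 entered log2 CPM. The test was first run on simulated data in which genes were changed in mTEC alone, a simpler setting than these data. Reads are not independent molecules, so floors cover counting error only. Replicates of a group differed by more than sampling noise (chi-square per degree of freedom 20.5 to 191).

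The members, lists and tests were chosen with earlier results of these data known. Named are the 8 members, 2 relatives, of each list at most the 3 largest and 3 smallest called differences per pair, and the 3 genes most like each member. B3gnt2 was added because its counts and TPM disagree. Neighbouring genes were taken by position, and single marker genes given with the label checks were chosen after their values were seen. Same-numbered mTEC and cTEC libraries deviated together (correlations 0.156 to 0.29), so the replicate number was taken to pair these, from the data and not from a label. Over all 30 pairs of same-numbered libraries, correlations ran from -0.0636 to 0.29. Alternatives were other scalings, filters, DESeq2 1.42.0, rounded expected counts, unstranded counts, a replicate block, removal of Gm42418, leaving out each library, and fits within a kit.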

Additional observations from a re-analysis of the deposited data

How the results depend on the processing

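Scaling and reads limit small differences. Upper quartile scaling moved the median log2 difference of all genes by up to 0.22 (mTEC against colon) and DESeq2 size factors by up to 0.13, and galectin differences are to be read against that. Lgals2, and Lgals7 outside skin, rest on few reads.

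For mTEC against cTEC the count of galectins called was 1 when fitted within one kit and 1 with the replicate block on the thymic libraries alone (chosen after seeing the data), and 0 to 4 when each library was left out. The planned replicate block over all libraries changed 1 call, Lgals1 in mTEC against skin, which passed (adjusted p = 0.0179).

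Apart from Lgals2 with unstranded counts, signs turned where differences were smaller than their standard errors. Lgals8 in mTEC against cTEC became 0.0072 with DESeq2 size factors, 0.0181 with no filter and 0.0067 in the DESeq2 Wald test, with a leave-one-out range of -0.11 to 0.0284. Lgals12 in mTEC against skin became 0.0316 with DESeq2 size factors, 0.0314 in the Wald test, 0.0547 with upper quartile scaling, 0.12 with no filter, 0.0056 with a filter at 1 CPM and 0.0043 with unstranded counts, with a leave-one-out range of -0.0744 to 0.14. Unstranded counts, which add the opposite-strand reads, turned Lgals2 from 7.59 to -0.40 in cTEC against skin. They turned it from 0.56 to -0.20 in cTEC against lung and from -7.02 to 0.20 in skin against lung. The Lgals2 calls in cTEC against skin (adjusted p = 5.86e-04) and skin against lung (0.00105) were thereby lost (0.661 and 0.836). Leave-one-out ranges crossed 0 for Lgals1 in cTEC against skin (-0.79 to 0.91), Lgals2 in mTEC against colon (-0.15 to 0.64) and Lgals3 in skin against colon (-0.0228 to 0.54). The causes of the other changes were not tested. Settings other than leave-one-out, fits within a kit included, gave 664 single differences. Of these, 639 kept sign and call, 12 turned sign, 7 gained and 6 lost the call. Of 1050 with a library left out, these numbers were 1009, 9, 10 and 22. A turned sign was counted only as such, so the Lgals2 calls lost with unstranded counts are among the 12.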
